A study of Mus musculus with 4 samples.

Results

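The proteasome is the barrel-shaped protease that degrades ubiquitin-tagged proteins, and its subunit and regulator genes were followed here through the last stages of red cell formation in the mouse fetal liver. Members are the gene symbols that begin with Psm, one letter from a to g, and a number. The files hold 48 of them among 19564 symbols. By known role they fall into 7 alpha and 7 constitutive beta subunits of the 20S core, 4 inducible or tissue-specific beta subunits (Psmb8, Psmb9, Psmb10 and Psmb11), 6 ATPases and 11 non-ATPase subunits of the 19S cap, 5 activators or inhibitors, 7 assembly factors, and Psmc3ip. Psmc3ip carries the name but encodes a meiotic recombination protein and no proteasome subunit.

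The core encloses the peptide-cutting sites, which sit on Psmb5, Psmb6 and Psmb7. The 19S cap binds ubiquitin chains, removes them, and unfolds the substrate with its ring of ATPases. In immune cells and after interferon the inducible subunits Psmb8, Psmb9 and Psmb10 take the places of Psmb5, Psmb6 and Psmb7, which changes the peptides made. Maturing erythroblasts are known for discarding most of their proteins and organelles while globin accumulates.

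Cells of E14.5 mouse fetal liver were stained for TER119, an erythroid antigen, and CD71, the transferrin receptor, and sorted into 4 populations that were used without culture. R2 holds proerythroblasts and early basophilic erythroblasts, R3 early and late basophilic erythroblasts, R4 mostly polychromatophilic and orthochromatophilic erythroblasts, and R5 late orthochromatophilic erythroblasts and reticulocytes. The labels name no strain, genotype, sex, number of pooled embryos or treatment. Polyadenylated RNA of each population gave 1 library. Differences between populations therefore could not be tested against replicates, and no p-values were computed.

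Values are RPKM, reads per kilobase of gene scaled to the size of the library, and runs of 4 values are in the order R2, R3, R4 and R5. Ratios are log2 ratios of RPKM + 1, which understate the change of low genes. The text counts a gene as higher or lower where the ratio is at least 2-fold, unless it says by any amount. Other folds and multiples given for single genes divide the RPKM as listed, without the added 1. An estimate from the lowest values gave 20700000 to 27400000 reads a library. Globin genes held 5.52%, 59.4%, 80.4% and 81.9% of all RPKM, and a rise in that share lowers the RPKM of every other gene. The median gene stood at -1.65 in R5 against R2, and at -0.42 once libraries were scaled by the median of their gene ratios. In such sorted bulk samples fewer cells of a type and less RNA per cell cannot be told apart.

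The R2 library stood apart in genes of a cell type that its label does not name. All 12 granulocyte markers were highest there. The myeloperoxidase gene Mpo stood at 1966, 95.2, 59.1 and 146 RPKM. The 9 matched erythroid markers summed to 959.6, 4901, 5479 and 3878 RPKM. Much of that sum was Slc4a1, at 164, 2342, 2667 and 1734, and Alas2, at 75.3, 1129, 1797 and 1406. All 9 were higher in R3 than in R2 by any amount, 5 of them by 2-fold, beside 3.81% of all genes at 2-fold. In R5 against R2, 4 were 2-fold higher, beside 2.74% of all genes, and the other 5 were within 2-fold. The counts of members, classes and lists in R5 against R2 are therefore followed by those in R5 against R3. R3 stood apart in turn in hepatocyte markers, as given with the other marker lists.

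As deposited, R5 held 45 of 47 members at a level at least 2-fold below R2 and 0 above it, counting those with 1 RPKM or more in some library. Without Psmc3ip the count was 44 of 46, with a median ratio of -1.84. Across all 9942 genes past that filter 76.9% were lower and 2.74% higher. The 48th member, Psmb11, the beta subunit of thymus epithelium, stayed at or under 0.06 RPKM in every library, on at most 7 estimated reads. The median ratio of the 47 was -1.86, beside -1.65 for all genes and -1.88 for the 7329 genes that reach 5 RPKM. With median scaling 2 members, Psma4 and Psmb8, were lower and 1, Psme3, higher, at a background of 13.7% and 9.42%. Once the globin genes were removed 7 were lower and 0 higher, at 28.9% and 7.27%. The median under these scalings was -0.35 and -0.69, against -0.42 and -0.67 for all genes. The members as a group thus lay close to the median of all genes, below it as deposited and without globins, and above it with median scaling. Genes that reach 5 RPKM had medians of -1.88 as deposited, -0.49 with median scaling and -0.79 without globins. Each of these lay below the member median. The spread of the members was narrower, with an SD of 0.49 across members against 0.99 across all genes as deposited.

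The steps were uneven. From R2 to R3 the count was 22 of 47 members lower and 0 higher, at a background of 55.1% and 3.81%. From R3 to R4, 28 were lower and 0 higher, at 32.1% and 0.493%. From R4 to R5, 0 were lower and 3 higher, at 0.604% and 3.96%. The 3 were Psmb10, Psmg1 and Psmg2. With median scaling the members lower at the first 2 steps numbered 7 and 0, at a background of 18% and 0.382%, and without globins they also numbered 7 and 0, at 22% and 2.66%. With R2 not used, R5 had 8 of 47 members lower than in R3 by 2-fold or more and 0 higher, at a background of 13.1% lower, and the median was -0.73 against -0.47 for all genes. By any amount, 36 members were lower in R3 than in R2, lower again in R4 and higher in R5, as were 69.5% of all genes. The summed RPKM of the 48 members was 4349, 2058, 1027 and 1278. As a share of all RPKM outside the globin genes it was 1.15%, 0.935%, 0.744% and 0.808%.

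**Figure D1:**
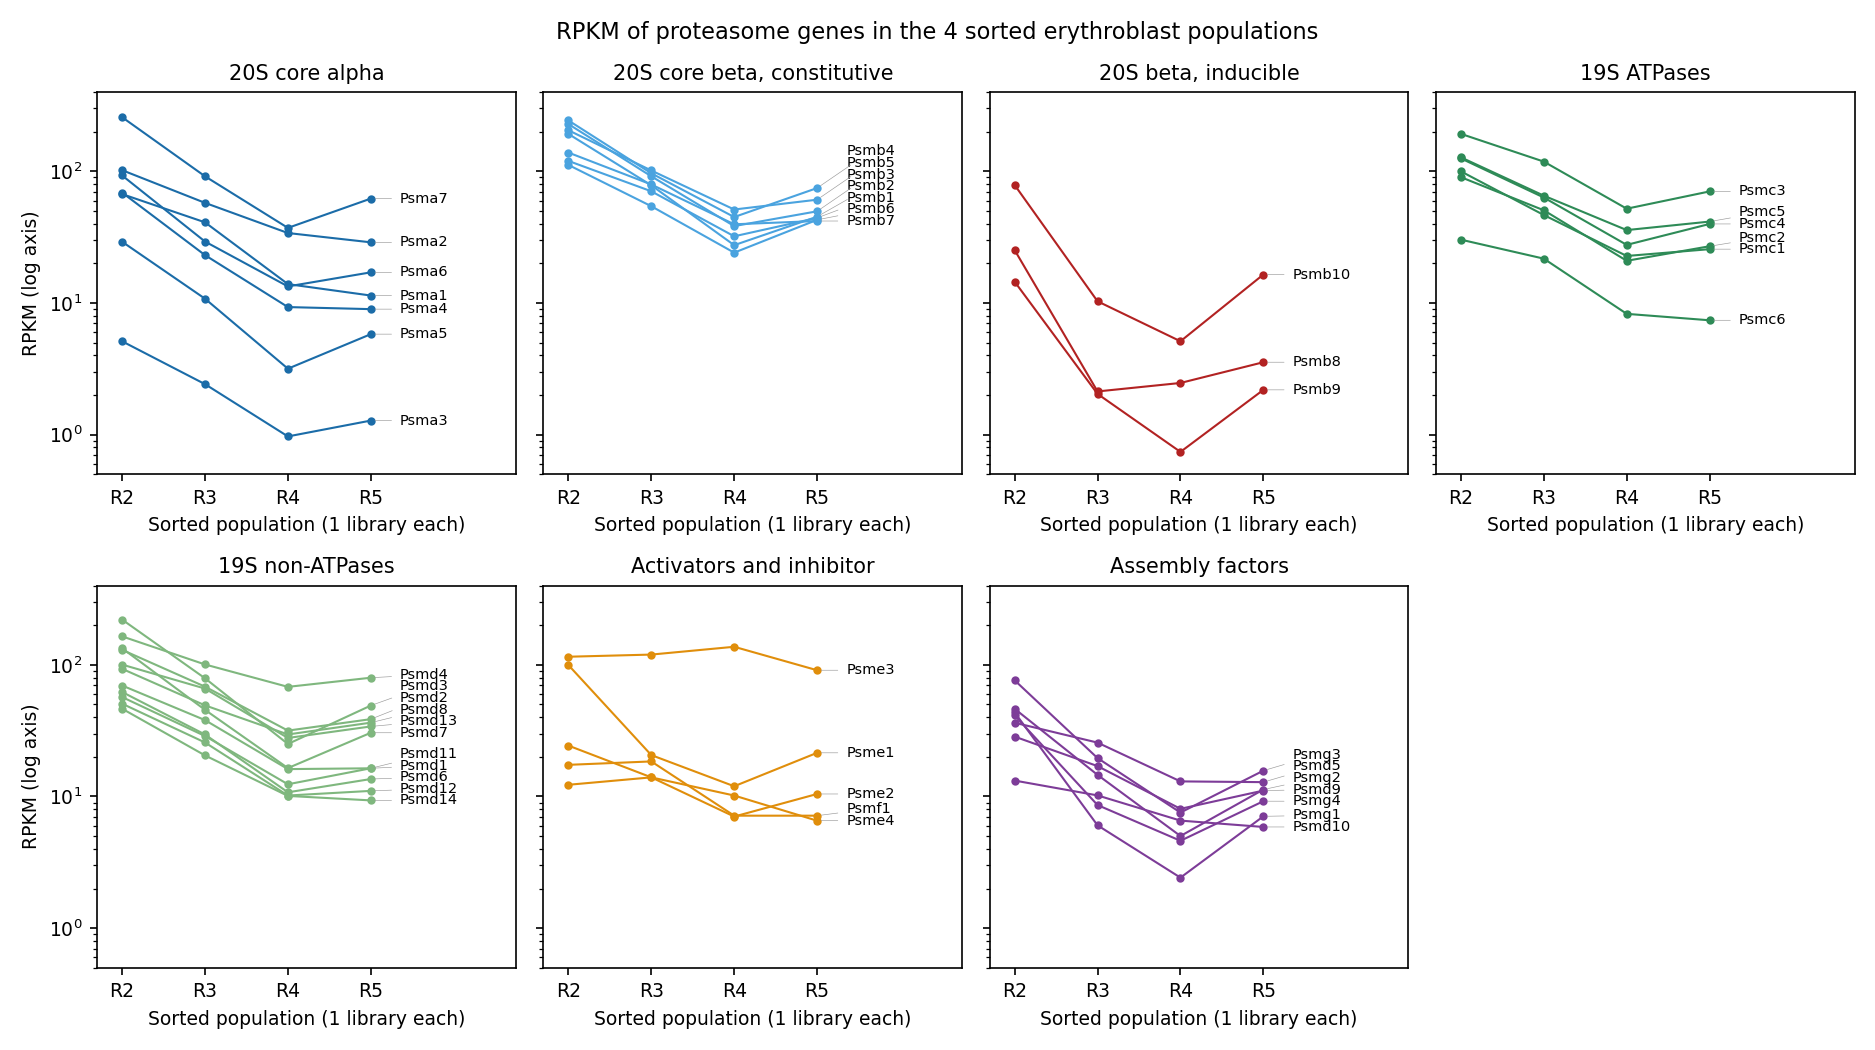
RPKM (log axis) of 46 proteasome genes in the libraries R2, R3, R4 and R5, with 1 line per gene and 1 panel per class; Psmb11 and Psmc3ip are not drawn. Most lines run down from R2 to R4 and level off or turn up in R5, while Psme3 stays between 90.9 and 137 RPKM.

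The promoters of the members were searched for short motifs, since most genes of the particle had like ratios in R5 against R2, with Psme3 and Psmd4 at the high end. The inducible genes lay at the low end in R3 against R2. RefSeq promoters of build GRCm38.p6, from 250 bases before to 50 after the start site, were found for 41 of the 48 members. A gene was counted where any of its promoters matched. The core of the CNC and Maf element, TGACNNNGC on either strand, was present in 6 of 41, or 14.6%, beside 17.5% of the 6931 genes past the filter with a promoter found. CCAAT, the NF-Y box, searched on both strands, was in 15 of 41 members, or 36.6%, beside 43.6%, and 5 of the 15 were alpha subunits. The interferon-stimulated response element, read as GAAA and GAAA with any 2 bases between on either strand, was in 5 of 41, or 12.2%, beside 3.64%. TTCNNNGAA, the gamma-activated sequence, reads the same on both strands and was in 3 of 41, or 7.32%, beside 7.88%. A match is a match of letters in this window and no more. The windows that follow hold matches of the most abundant alpha gene Psma7, the catalytic genes Psmb5 and Psmb6, the cap gene with the highest ratio Psmd4, the inducible gene Psmb8, and Psme3. They read 5′ to 3′ on the gene's strand, with the named motif in capitals.
Psma7, CCAAT, chr2:180042636-180042680, minus strand: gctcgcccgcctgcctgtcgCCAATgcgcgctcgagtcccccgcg
Psmb5, TGACNNNGC, chr14:54618014-54618062, minus strand: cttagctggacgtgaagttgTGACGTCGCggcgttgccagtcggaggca
Psmb6, TGACNNNGC, chr11:70525328-70525356, plus strand: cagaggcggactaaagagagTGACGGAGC
Psmd4, interferon element on the opposite strand, chr3:95042665-95042714, minus strand: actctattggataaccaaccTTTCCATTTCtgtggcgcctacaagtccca
Psmb8, TTCNNNGAA, chr17:34198078-34198126, plus strand: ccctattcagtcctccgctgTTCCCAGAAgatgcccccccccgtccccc
Psme3, CCAAT on the opposite strand, chr11:101316179-101316212, plus strand: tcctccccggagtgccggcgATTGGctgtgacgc
The matches begin 196 bases before the start site in Psma7, 47 in Psmb5, 9 in Psmb6, 80 in Psmd4, 97 in Psmb8 and 14 in Psme3. The Psmd4 window also holds CCAAT on the opposite strand, in lower case, which begins 95 bases before the start site. The 5 members with the interferon element were Psmb3, Psmd4, Psmd9, Psme1 and Psmg4. In Psme1 and Psmg4 it begins after the start site, at positions 10 and 16. Of the 4 inducible or tissue-specific beta genes 0 held it.

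The alpha subunits form the outer rings of the core and gate its entry. All 7 were lower in R5 than in R2 as deposited, with a median of -2.15, and 1 was with median scaling. Set against R3, R5 had 2 of 7 lower, at a median of -0.79. The shares of all genes lower in these comparisons were 76.9%, 13.7% and 13.1%, for this class and those that follow. Psma7, the highest of them in every library, was at 257, 91.6, 37.2 and 62.1 RPKM. Psma4 had the lowest ratio of the constitutive core, -2.81, with 68.9, 23.1, 9.31 and 8.98 RPKM, and was the alpha subunit still 2-fold lower with median scaling, at -1.27. Psma1 was at 67.1, 41.0, 13.9 and 11.4 RPKM, so that it was lower in R5 than in R3 by 1.76 on the log2 scale, the largest such drop of any member, for which it was picked out. Psma3 was the lowest alpha subunit in every library, at 5.12, 2.42, 0.97 and 1.28 RPKM. Its ratio of -1.42 was the highest of the class, but at so low a level the added 1 RPKM weighs on it. Psma2, named for this after its values were seen, was at 102, 57.6, 34.0 and 28.9 RPKM, a ratio of -1.79, and R5 held 28.3% of its R2 level against 25.0% for Psma3. Of the principal Psma3 transcript 34.4% matched transcripts of 17 other genes at 95% identity or more, and the labels do not say how reads that fit several places were counted.

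The constitutive beta subunits form the inner rings. As deposited all 7 were lower as well, with a median of -1.70, and none were under median scaling (0 of 7). With R3 in place of R2, 0 of 7 were lower, with a median of -0.73. Psmb4, the highest by its mean over the libraries, was at 243, 96.6, 44.9 and 74.6 RPKM. Among the subunits that cut, Psmb5, of the chymotrypsin-like site, was at 205, 101, 51.3 and 60.9 RPKM, and 88.4% of its principal transcript matched other genes. Psmb6, of the caspase-like site, was at 112, 54.3, 24.1 and 42.8, the highest ratio of the core at -1.36, which turned to 0.21 with median scaling. Psmb7, of the trypsin-like site, was at 139, 79.4, 39.6 and 41.9 RPKM, and 35.1% of its principal transcript matched Nek6. Psmb3 had the lowest beta ratio, -2.18, with 228, 91.6, 38.4 and 49.7 RPKM.

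The 14 core subunits kept much the same order of levels. Spearman's rho of their RPKM between libraries ran from 0.86 for R4 with R5 to 0.97 for R2 with R5, a description over 14 genes that share the same libraries. In R5 against R2 their ratios spread from -2.81 to -1.36 around a median of -1.91. That median serves as an internal reference for the other classes.

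The 6 ATPases of the 19S cap lay close together. Each was lower in R5 than in R2 as deposited, between -1.92 for Psmc1 and -1.44 for Psmc3, and 0 of 6 were with median scaling. In R5 against R3, 1 of 6 was lower, with a median of -0.79. Psmc3 was also the highest by its mean, at 192, 118, 52.0 and 70.4 RPKM, and its ratio was 0.15 with median scaling. Psmc1 was at 99.9, 46.6, 22.8 and 25.6 RPKM. Psmc6, named after its values were seen, was at 30.3, 21.7, 8.27 and 7.39 RPKM, a ratio of -1.90, and it was below Psmc1 with median scaling, at -0.40 against -0.35. From R2 to R3 only Psmc1 of the 6 was 2-fold lower as deposited, whereas 5 were from R3 to R4, beside 55.1% and 32.1% of all genes.

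The 11 non-ATPase subunits were likewise all lower as deposited, and 0 of 11 were with median scaling. Against R3, R5 had 4 of 11 lower, at a median of -0.80. Psmd4, a receptor for ubiquitin chains, had the highest ratio, -1.03, which turned to 0.55 with median scaling and to 0.21 without globins. It was at 164, 101, 68.0 and 79.8 RPKM, and it made up 14.6%, 18.3%, 26.3% and 23.8% of the 11 genes together. Psmd14, the enzyme that cuts ubiquitin chains off the substrate, had the lowest ratio, -2.20, with 46.4, 20.5, 10.1 and 9.34 RPKM. Psmd3 and Psmd7, scaffold subunits of the lid, had the highest ratios of the cap in R5 against R4, 0.94 and 0.85. Psmd3 was at 220, 79.0, 25.0 and 49.0 RPKM, and Psmd7 at 134, 45.5, 16.4 and 30.5. Their R5 values were 1.96 and 1.86 times those in R4, while Psmd14 was at 0.925 times. Psmd3 and Psmd7 were picked out after their values were seen.

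Activators open the core without the 19S cap, and here the class split. Psme3, the nuclear activator PA28 gamma, was at 115, 120, 137 and 90.9 RPKM. It was the one member highest in R4, and the most abundant of the 48 in R3, R4 and R5. Its ratio in R5 against R2 was -0.34 as deposited, but 1.25 with median scaling and 0.90 without globins, and it lay 1.57 above the core median. Set against the core median in the same library, Psme3 stood at 99.4%, 187%, 460.0% and 215%. Psme4, the large activator PA200, was at 12.3, 13.97, 10.2 and 6.55 RPKM, with a ratio of -0.81 that turned to 0.61 with median scaling and to 0.31 without globins. Psme3 and Psme4 were the members at least 2-fold above the core median in R5 against R2, 2 of 47, and 0 were as far below it. Among all genes 20.3% lay at least 2-fold above that median and 2.11% below it. Under either other scaling 1 member was that far from the core, namely Psme3. In R5 against R3 Psme3 lay 0.37 above the core median of -0.76, and Psme4, at -0.99, lay below it. Both members 2-fold above the core in that comparison were inducible subunits, Psmb10 by 1.39 and Psmb8 by 1.30, with 0 below, at a background of 6.86% above and 0.412% below.

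The cytoplasmic activator PA28 alpha and beta, which interferon is known to induce, differed from PA28 gamma. Psme1, the alpha subunit, was at 99.6, 20.6, 11.96 and 21.5 RPKM, 4.83-fold lower in R3 than in R2. Psme2, the beta subunit, was at 24.4, 13.98, 7.04 and 10.5 RPKM, and 82.5% of its principal transcript matched Psme2b. Of the summed RPKM of the 3 PA28 genes, Psme3 held 48.2%, 77.5%, 87.8% and 74.0%. Psmf1, a regulator first described as an inhibitor of the core, was at 17.4, 18.5, 7.15 and 7.15 RPKM, so that it was level from R2 to R3, lower in R4 and level again.

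**Figure D2:**
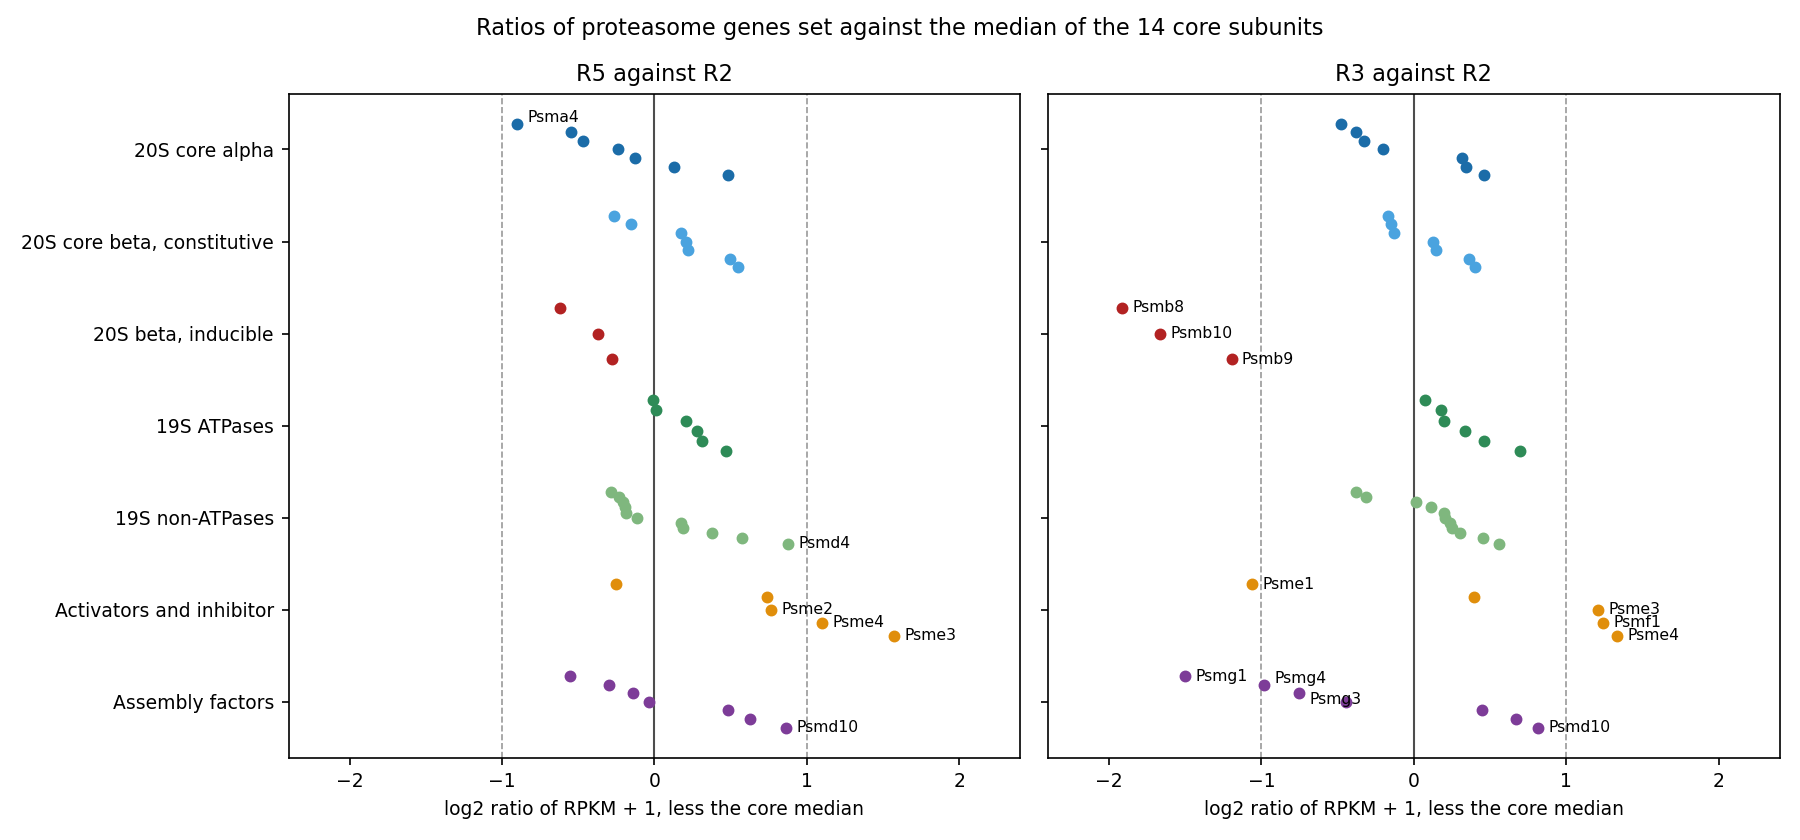
Horizontal axes give the log2 ratio of RPKM + 1 of each gene less the median ratio of the 14 core subunits, for R5 against R2 (left) and R3 against R2 (right); each point is 1 gene in 1 pair of libraries, and dashed lines mark 2-fold. Psme3 at 1.57 and Psme4 at 1.10 lie past the line on the left, and on the right Psme3 at 1.21, Psme4 at 1.33 and Psmf1 at 1.24 lie past the upper line and Psmb8, Psmb9, Psmb10, Psme1 and Psmg1 past the lower.

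Psmb8 had the lowest ratio of any member in R3 against R2, and the other inducible subunits also dropped at that step. Psmb8 was at 25.2, 2.13, 2.47 and 3.55 RPKM, 11.8-fold lower in R3 than in R2. Psmb9 was at 14.5, 2.04, 0.74 and 2.19 RPKM, 7.12-fold lower in R3. Psmb10 was at 78.7, 10.3, 5.12 and 16.5 RPKM, 7.64-fold lower in R3 and 3.21-fold higher in R5 than in R4. All 3 were 2-fold lower in R3 than in R2 under each of the 3 scalings, at medians of -2.82, -1.93 with median scaling and -2.05 without globins, where 55.1%, 18% and 22% of all genes were. From R3 to R5, 0 of 3 were 2-fold lower or higher, with a median of 0.54, while 13.1% of all genes were lower. The estimated reads behind them were 943 in R2 and 89 in R3 for Psmb8, and 451 and 71 for Psmb9, whose count in R4 was 27.

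Set against the subunit it replaces in the same library, each inducible gene was a smaller part after R2. Psmb8 made up 10.96%, 2.06%, 4.60% and 5.51% of the sum of Psmb8 and Psmb5. Psmb9 made up 11.5%, 3.62%, 2.98% and 4.87% of its sum with Psmb6. Psmb10 made up 36.2%, 11.5%, 11.5% and 28.2% of its sum with Psmb7, so that its part in R5 was nearer to that in R2 than to that in R4. Of the principal Psmb9 transcript 15.7% matched its neighbour Tap1, and 11.7% of that of Psmb8 matched Gm20496.

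**Figure D3:**
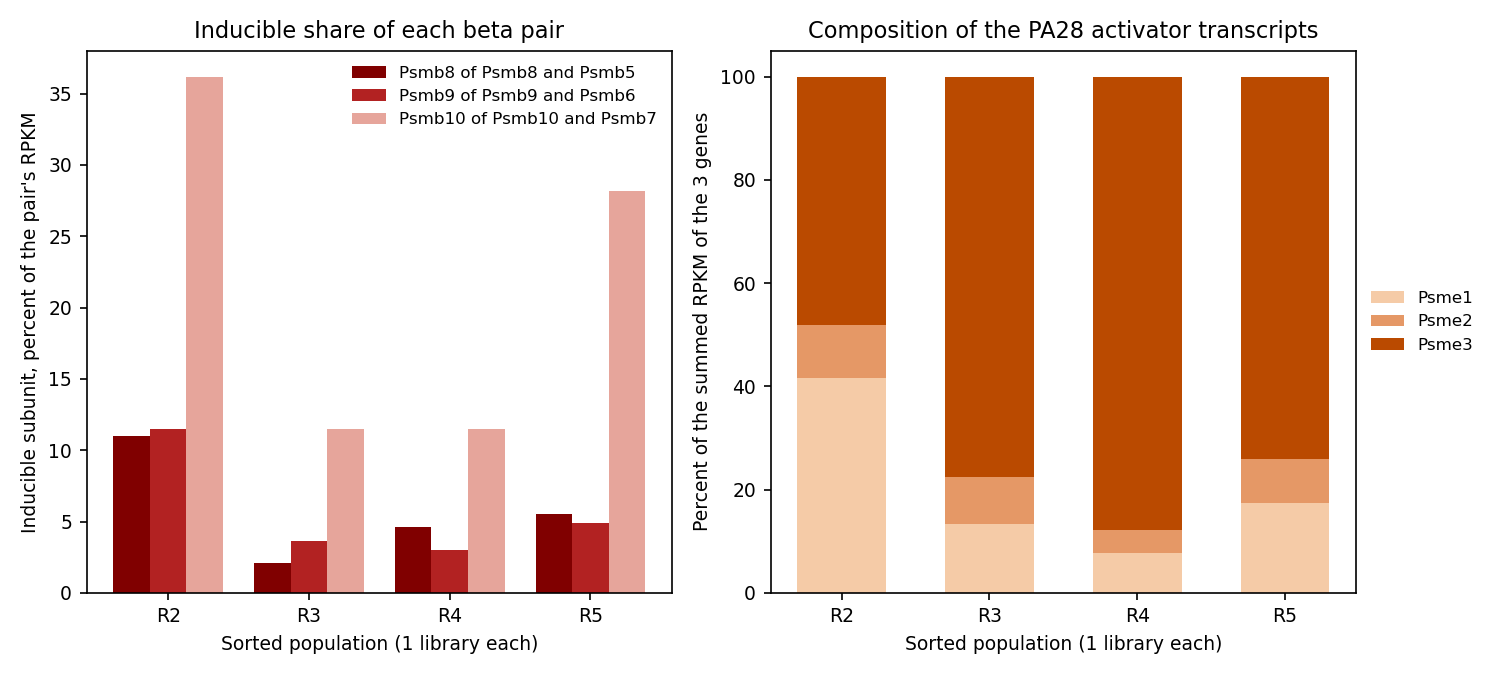
Left, bars give each inducible beta subunit as a percent of the RPKM of its pair in R2, R3, R4 and R5; right, stacked bars divide the summed RPKM of Psme1, Psme2 and Psme3 (percent). Inducible shares are highest in R2 for every pair, at 10.96%, 11.5% and 36.2%, and Psme3 goes from 48.2% in R2 to 87.8% in R4.

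Other genes of antigen presentation and granulocyte genes were lower at the same step. All 10 genes of MHC class I peptide loading were lower in R3 than in R2 by any amount, 9 of them at least 2-fold, with a median of -1.94. With median scaling 7 were 2-fold lower. The matching shares of all genes were 87.2%, 55.1% and 18%. The chaperone gene Calr was at 449, 116, 73.7 and 107 RPKM, its membrane-bound relative Canx at 83.7, 31.8, 11.1 and 13.7, the disulfide isomerase gene Pdia3 at 92.5, 18.1, 7.19 and 13.1, and Tapbp, at the high end of the list, at 41.2, 24.4, 14.6 and 16.4. Among 14 interferon response genes past the filter 6 were lower by 2-fold or more and 1 higher, and 2 and 1 with median scaling. In R5 against R3, 1 of the 10 peptide loading genes and 0 of the 14 interferon response genes were lower, beside 13.1% of all genes. In that comparison 0 of either list were higher. Ifngr1, a subunit of the interferon gamma receptor, was at 53.1, 4.27, 2.43 and 4.96 RPKM, while Isg15, a ubiquitin-like modifier, was at 1.28, 6.97, 12.1 and 6.04. The interferon receptor gene Ifnar2 was at 14.6, 11.1, 10.2 and 11.7 RPKM, and Ifi35, an interferon-induced gene, at 17.4, 12.02, 8.77 and 8.78. All 12 granulocyte markers were at least 2-fold lower in R3 than in R2, beside 55.1% of all genes. Their summed RPKM was 6271, 441, 241.4 and 481, with none at 0. In R5 against R4 all 12 were higher by any amount and 3 by 2-fold, where 76.2% and 3.96% of all genes were. The 12 macrophage markers summed to 326, 97.8, 47.2 and 88.5 RPKM, with Cd163 listed at 0 in R2. Lyz2, which granulocytes also express, made up much of that sum, at 212, 28.3, 18.0 and 20.7 RPKM, and the other 11 summed to 114, 69.5, 29.2 and 67.8. In R3 against R2, 3 of the 11 macrophage markers past the filter were 2-fold lower, with a median of -0.31, beside 55.1% and -1.09 for all genes. The 7 matched lymphoid markers summed to 30.6, 5.40, 3.13 and 5.29, with Cd3e listed at 0 in every library and Cd3g in R3 and R5. The 10 hepatocyte markers summed to 234, 571, 194 and 413 RPKM. Of these 10, 8 were 2-fold higher in R3 than in R2 and 10 were 2-fold lower in R4 than in R3, beside 3.81% and 32.1% of all genes. Every one was higher in R5 than in R4 by any amount and 4 were by 2-fold, where 76.2% and 3.96% of all genes were. The 8 matched megakaryocyte markers summed to 43.45, 45.6, 23.7 and 69.8 RPKM. The part of these cells' RNA in the levels of the inducible subunits, Psme1 and the assembly factors was not tested.

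Assembly factors divided by the particle they build. Psmg1 to Psmg4 encode the chaperones that join alpha subunits into a ring. From R2 to R3 all 4 were lower as deposited, with a median of -2.02, and 3 were with median scaling, beside 55.1% and 18% of all genes. Psmg1 was at 43.5, 6.04, 2.42 and 7.07 RPKM, 7.20-fold lower in R3 than in R2 and 2.92-fold higher in R5 than in R4. Psmg2, its partner, was at 46.4, 14.6, 5.01 and 11.3 RPKM, Psmg3 at 76.3, 19.6, 7.55 and 15.7, and Psmg4 at 41.3, 8.61, 4.61 and 9.21. Without the added 1, the R5 RPKM of the 4 genes was 1.998 to 2.92 times that in R4. By the ratio of RPKM + 1, Psmg1 and Psmg2 were 2-fold higher, at 1.24 and 1.03, beside 3.96% of all genes. Psmg3 and Psmg4 were not, at 0.97 and 0.86. The median of the 4 genes in R5 against R3 was -0.11, and 0 of 4 were lower, beside 13.1% of all genes.

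The chaperones of the 19S base differed from the Psmg genes. Of Psmd5, Psmd9 and Psmd10, 0 were 2-fold lower in R3 than in R2, with a median of -0.49, beside 55.1% of all genes. In R5 against R3 0 were lower, with a median of -0.70, beside 13.1%. Psmd10, also known as gankyrin, was at 13.2, 10.2, 6.56 and 5.87 RPKM, a ratio of -1.05 in R5 against R2 that turned to 0.38 with median scaling and to 0.073 without globins. Psmd5 was at 36.3, 25.7, 13.0 and 12.9 RPKM, and Psmd9 at 28.5, 17.0, 8.06 and 11.1. Psmc3ip, the meiotic gene, was at 21.3, 10.3, 2.91 and 5.16 RPKM.

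Members that were lowest in R3 relative to R2 tended to be highest in R5 relative to R4. Across the 47 members Pearson's r between these ratios was -0.75 and Spearman's rho -0.71. Without the inducible subunits, the Psmg genes and Psme1, a choice made after the values were seen, r over the other 39 was -0.68 and rho -0.57. Over all 9942 genes r was -0.53 and rho -0.54. The pairs of libraries do not overlap, but all points share the same 4 libraries, genes are not independent replicates, and these values are descriptions. Granulocyte markers followed the same course, with medians of -3.49 in R3 against R2 and 0.85 in R5 against R4, and their part in the relation was not tested.

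**Figure D4:**
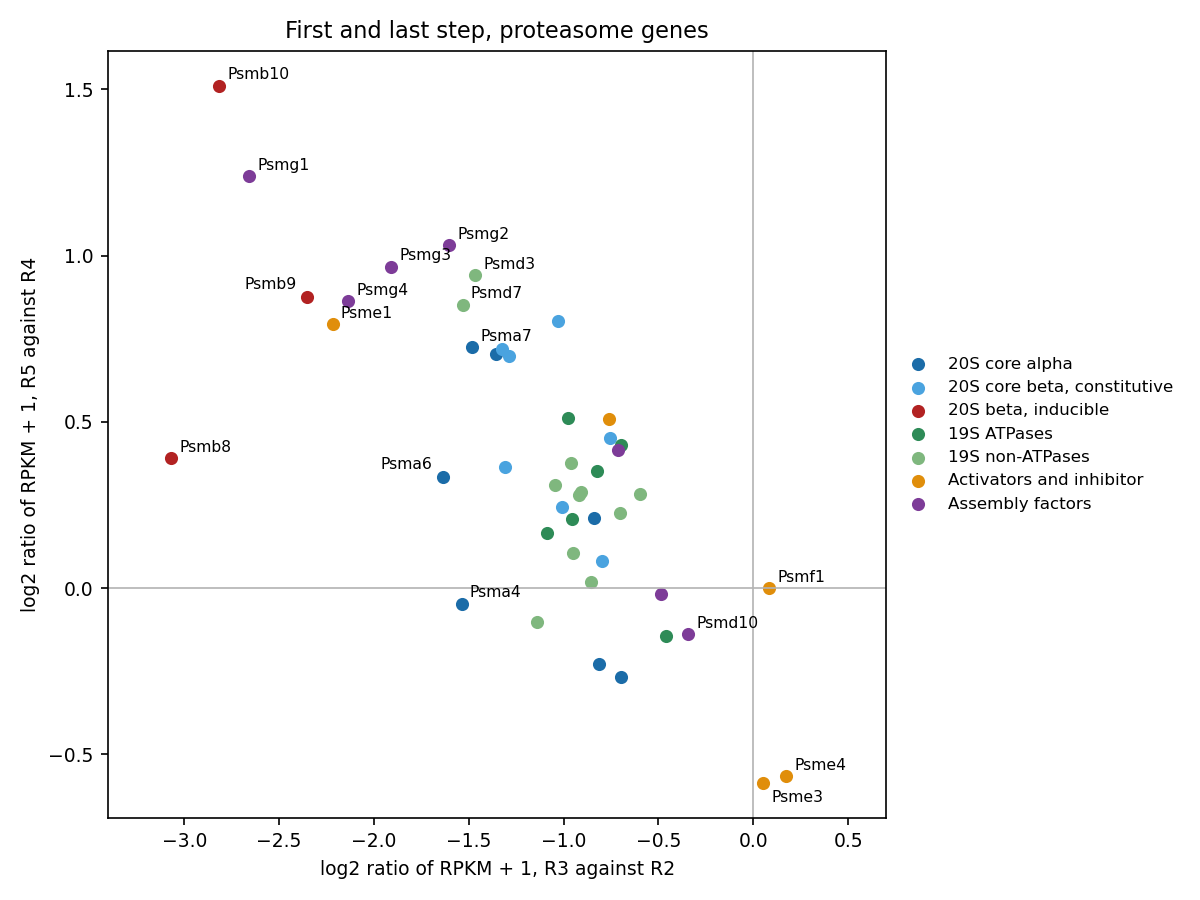
Each point is 1 of 46 proteasome genes (Psmc3ip not drawn), with the log2 ratio of RPKM + 1 in R3 against R2 on the horizontal axis and in R5 against R4 on the vertical axis. Psmb10 at -2.82 and 1.51 and Psmg1 at -2.66 and 1.24 lie at the upper left, and Psme3 and Psme4 at the lower right.

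Genes that work with the proteasome but lie outside the name rule were listed as well, and 20 of 21 were matched. R5 held 15 of 20 below R2 by 2-fold or more and 1 above it, with a median of -1.51, beside 76.9% and 2.74% of all genes. Median scaling gave 3 lower and 4 higher, beside 13.7% and 9.42% of all genes. The count in R5 against R3 was 2 of 20 lower and 0 higher, beside 13.1% of all genes lower. Ubqln4, which shuttles ubiquitin-tagged proteins to the cap, had the lowest ratio, -2.71, with 54.0, 12.1, 4.19 and 7.41 RPKM. The cap subunit genes Shfm1 and Adrm1 were at 184 and 136 RPKM in R2 and at 83.5 and 49.2 in R5.

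Ubiquitin itself was set apart from the protease. Ubb, a polyubiquitin gene, was at 584, 548, 785 and 675 RPKM, a ratio of 0.21 in R5 against R2 that lay 2.12 above the core median. Uba1, the main activating enzyme, was at 173, 97.1, 72.6 and 65.2. Rps27a, a fusion of ubiquitin with a ribosomal protein, was at 37.3, 11.97, 3.20 and 8.84 RPKM. Counted as deposited, 4 of the 6 genes were lower and 0 higher, and with median scaling 0 were lower and 1, Ubb, higher. The shares of all genes were 76.9% and 2.74% as deposited, and 13.7% and 9.42% with median scaling. Between R3 and R5, 0 of 6 differed by 2-fold, while 13.1% of all genes were lower. These genes share near-identical ubiquitin repeats, so the split of reads among them is uncertain.

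Proteasome genes are known targets of the CNC factors Nfe2l1 and Nfe2l2, which bind with small Maf partners. The list holds these factors, their relatives and partners, and Keap1, the adaptor that marks Nfe2l2 for degradation. As deposited 3 of its 8 genes past the filter, Nfe2l1, Nfe2l2 and Keap1, were lower in R5 than in R2 and 1 was higher. Of all genes, 76.9% lay at least 2-fold below their R2 level in that comparison, and 2.74% lay as far above it. Median scaling changed the counts of the list to 0 lower and 3 higher, where the background was 13.7% and 9.42%. In R5 against R3, 1 of 8 was lower and 0 higher, beside 13.1% of all genes lower. Keap1 was at 44.3, 22.9, 8.99 and 12.53 RPKM, a ratio of -1.74. Nfe2l1 was at 23.9, 11.8, 8.31 and 8.96 RPKM, and Nfe2l2 at 24.7, 14.4, 5.02 and 5.56. Their erythroid relative Nfe2 was at 60.4, 204, 258 and 216 RPKM. The small Maf genes Mafg, at 23.3, 40.6, 44.3 and 36.3 RPKM, and Mafk, at 33.7, 53.1, 68.9 and 47.5, were also highest in R4. Nfe2l1 and Keap1 were named after their values were seen.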

How the data were processed

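Gene values of 4 mouse libraries, 1 per sorted population, were used as the authors deposited them, in RPKM with 2 decimals, the unit per the labels' titles. The genome build was mm9, per the submitters' processing notes. Aligner, counting program, annotation and gene lengths: not given in the sources used here. Low genes were filtered, which kept the 9942 genes that reach 1 RPKM in some library. Ratios are log2 of RPKM + 1, for R5 against R2 and the 3 steps. Depth is an estimate: the lowest value above 0 among 6 housekeeping genes was taken as 1 read over 1 base. With it, 81 to 110 of the 257 to 321 low genes tried per library gave whole reads within 0.03, so depths and reads per gene are approximate and cover counting error only. Estimated reads use the length of the principal GENCODE M21 transcript. Sharing between transcripts was searched with blastn 2.17.0 at 95% identity over 50 bases or more. Median scaling rested on 2745 genes that reach 5 RPKM in all libraries, and removal of globins rescaled the rest to a common sum. Members, classes and lists were chosen with earlier results of these data known. Named genes are, in each class, the members with the top mean RPKM, the top ratio and the bottom ratio, the catalytic and inducible subunits, the activators, and members at least 2-fold from the core median. In each list they are the 3 genes with the top means and those with the top and bottom ratios, a few of which are not reported here. Python 3.11.15, pandas 2.3.3 and scipy 1.17.1 were used.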

Additional observations from a re-analysis of the deposited data

How the results depend on the processing

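The counts of members called depend on the scaling. Members at least 2-fold lower in R5 than in R2 numbered 45 as deposited, 2 with median scaling, 7 with globins removed and 8 with R3 in place of R2. Their median went from -1.86 to -0.35, -0.69 and -0.73. With median scaling 1 member was higher in R5 against R2 and 1 in R4 against R3. For R3 against R2 the 22 lower members became 7 under either scaling, with medians of -0.13 and -0.22, beside 18% and 22% of all genes lower and medians of -0.37 and -0.46. For R4 against R3 the 28 became 17 with a pseudocount of 5 RPKM and 0 under either scaling, with medians of -0.10 and -0.47, beside -0.06 and -0.34 for all genes. The 3 members higher in R5 against R4 became 5 and 1 with pseudocounts of 0.1 and 5 RPKM. The Psmb9 share in R4 was 6.48% with 1 RPKM added to both genes. Single genes called lower in R5 against R2 turned with median scaling: Psmb1 to 0.16, Psmb6 to 0.21, Psmc3 to 0.15, Psmd10 to 0.38, Psmd13 to 0.042, Psmd4 to 0.55, Psmd5 to 0.10, Psmd8 to 0.24, Psmd9 to 0.23, Psme2 to 0.35 and Psmf1 to 0.29, as did Psmc1 in R4 against R3, to 0.053. With globins removed Psmd10 turned to 0.073, Psmd4 to 0.21 and Psme2 to 0.030. Members at least 2-fold from the core median numbered 2 as deposited and 1 under either scaling, alternatives chosen after seeing the data. The other 86 alternatives moved counts and shares by at most 1.5 times, shifted the ratio behind each median by less than 1.5-fold, and turned no median. Among them, the median for R5 against R4 went from 0.35 to 0.005 with median scaling and 0.17 without globins. Beside these, all genes had medians of 0.27, 0.07 and 0.18. No paired analysis was possible because each population has 1 library. Depth limits Psmb9 in R4 (27 estimated reads) and Psmb11.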

Other observations

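Genes of the VCP unfoldase, which extracts ubiquitin-tagged proteins from complexes and membranes for the proteasome, were listed as well. As deposited all 15 were lower in R5 than in R2 by any amount, 14 of them at least 2-fold, and 0 were 2-fold lower with median scaling. The medians were -1.50 and -0.09, where the core medians were -1.91 and -0.36. At 2-fold 76.9% and 13.7% of all genes were lower. In R5 against R3, 2 of the 15 were lower and 0 higher, beside 13.1% of all genes lower. Vcp itself was at 132, 66.4, 38.6 and 41.7 RPKM, in the order R2 to R5. Its cofactor gene Ubxn1 was at 121, 54.1, 25.8 and 51.0 RPKM, Nsfl1c, at the low end of the list, at 93.0, 26.6, 12.1 and 20.5, and Faf1, at the high end, at 11.7, 8.06, 4.70 and 5.78.

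Several subunits share sequence with other transcripts. Of the principal transcript of Psmd2, 98.2% matched Gm5422, and 88.4% of Psmb5, 82.0% of Psmc1, 81.4% of Psma5, 80.7% of Psmb3 and 76.7% of Psma4 matched transcripts of other genes at 95% identity or more. Psmd2 and Psma5 were also named after their values were seen: Psmd2 was at 130, 68.2, 31.6 and 38.7 RPKM, and Psma5 at 29.2, 10.8, 3.17 and 5.80.

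Among the proteasome partners Fbxo7, which binds Psmf1, was at 28.2, 46.7, 34.1 and 32.4 RPKM, and Zfand5, a proteasome-binding zinc finger gene, at 12.7, 9.80, 10.8 and 10.7. Pomp, the maturation factor of the core, was at 139, 43.8, 14.1 and 32.9 RPKM. These 3 genes were named after their values were seen.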
